A study of Arabidopsis thaliana with 4 samples.

Results

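The genes described here encode the nuclear part of the machinery that transcribes the mitochondrial and plastid genomes of Arabidopsis thaliana: 3 phage-type RNA polymerases (RPOTP, RPOTM and RPOTMP) and 6 plastid sigma factors (SIG1 to SIG6). Their locus identifiers define them, by a rule that holds no measured value though it was set with earlier results of these data known, and all 9 were present and tested in both tables, out of 34133 loci in each. Total RNA depleted of ribosomal RNA was sequenced from the double mutant of TRIC1 and TRIC2 (AtTric1&2 dko, called the dko here) and from wild type (WT(Col0)). The material was rosette leaves of plants 4 weeks old and seedlings 2 weeks old. The 4 groups are thus dko rosettes, wild-type rosettes, dko seedlings and wild-type seedlings, with growth at 22 °C under a day length of 16 h, and with a move to soil on day 5 for the rosette plants. Each group is stated to hold 3 replicates, with no word on separate plants or pools, and the authors deposited 1 pooled FPKM per group, which is the number of fragments corrected for transcript length and for library size. No value below therefore has a standard deviation, depth is unknown, and the only measure of error is Cuffdiff's q-value, used with a threshold of 0.05; its p-values reflect variation among samples that may be technical. In bulk tissue, fewer cells of a type and less RNA per cell cannot be told apart.

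Plastid genes are transcribed by both kinds of enzyme. The phage-type polymerases are single-subunit enzymes of nuclear origin: RPOTM acts in mitochondria, RPOTP in plastids, and RPOTMP is targeted to both. The plastid also encodes a bacterial-type polymerase, whose core subunits come from the rpo genes of the plastid genome, which needs a nuclear-encoded sigma factor to recognise its promoters and a set of tightly bound associated proteins to work in chloroplasts. SIG2 and SIG6 are best known from chloroplast development in seedlings, SIG3 and SIG4 for narrow sets of plastid genes, and SIG5 for its response to blue light and stress.

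TRIC1 had 10.7 FPKM in dko rosettes and 34.7 FPKM in wild-type rosettes, and 16.2 FPKM in dko seedlings and 33.9 FPKM in wild-type seedlings. TRIC2 had 0.0690 FPKM in dko rosettes and 17.5 FPKM in wild-type rosettes, and 0.366 FPKM in dko seedlings and 17.7 FPKM in wild-type seedlings. In the authors' deposited tables both passed in seedlings (q = 0.000768 each), while in rosettes TRIC1 passed (q = 0.000899) and TRIC2 did not (q = 0.146). The positions of the mutations were not stated, so which part of TRIC1 the remaining signal covers is not known. All 5 leaf markers were detected in every group. Their summed level was 5099 FPKM in dko rosettes and 7906 FPKM in wild-type rosettes. In seedlings it was 9921 FPKM in the dko and 19498 FPKM in wild type. Of the 5, 1 was called lower in rosettes and 3 in seedlings, where 8.94% and 8.14% of all tested loci were. Of 7 root markers, 5 were listed at 0 in dko rosettes and 6 in wild-type rosettes, and none in seedlings, where they summed to 2.48 FPKM in the dko and 2.45 FPKM in wild type. Of 5 flower markers, 2 were listed at 0 in dko rosettes and 2 in wild-type rosettes. They summed to 0.852 FPKM in dko rosettes and 1.59 FPKM in wild-type rosettes, and to 2.05 FPKM in dko seedlings and 0.767 FPKM in wild-type seedlings. The part of these markers in the results below was not tested.

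All 3 phage-type polymerase genes rose in the dko in both tissues, and no sigma factor gene did. Of the 9 genes, 3 passed the threshold in the authors' deposited rosette table, all higher, and SIG1 was the only further one with an unadjusted p under 0.05 (p = 0.0124, lower), where 7.81% of all 18338 tested loci were called higher and 8.94% lower. Of the same 9 genes, 3 were higher and 2 lower in the authors' deposited seedling table, where 8.4% of all 19747 tested loci were called higher and 8.14% lower. The summed level of the polymerase genes was 38.4 FPKM in dko rosettes and 15.6 FPKM in wild-type rosettes, while that of the sigma factor genes was 97.3 FPKM in dko rosettes and 100.3 FPKM in wild-type rosettes. In seedlings the polymerase genes summed to 48.5 FPKM in the dko and 27.9 FPKM in wild type, and the sigma factor genes to 119 FPKM in the dko and 133 FPKM in wild type. Polymerase transcripts per sigma factor transcript, as a ratio of these sums, were 0.394 in dko rosettes and 0.156 in wild-type rosettes, and 0.407 in dko seedlings and 0.210 in wild-type seedlings. The median log2 ratio of the polymerase genes was 0.89 in rosettes and 0.83 in seedlings, and that of the sigma factor genes was -0.23 in rosettes and -0.20 in seedlings. Over all tested loci the median was 0.01 in each tissue.

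RPOTP, the phage-type polymerase of plastids, had the highest log2 ratio of the 9 genes in rosettes. Its level was 24.1 FPKM in dko rosettes and 7.85 FPKM in wild-type rosettes, a 3.07-fold rise (log2 ratio 1.62, q = 0.000899 in the authors' deposited table). In seedlings it was 36.0 FPKM in the dko and 20.3 FPKM in wild type, a 1.77-fold rise (log2 ratio 0.83, q = 0.000768 in the authors' deposited table). Only 1.9% of tested loci had a higher log2 ratio in rosettes and 3.4% in seedlings. By level among the 9 genes RPOTP was the third in dko rosettes and the sixth in wild-type rosettes, and in seedlings the second in the dko and the fourth in wild type.

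RPOTM, the mitochondrial enzyme, had 8.79 FPKM in dko rosettes and 4.82 FPKM in wild-type rosettes (1.82-fold, log2 ratio 0.87, q = 0.0250 in the authors' deposited table). In seedlings it had 8.07 FPKM in the dko and 5.35 FPKM in wild type (1.51-fold, log2 ratio 0.59, q = 0.00504 in the authors' deposited table). The dko value was the higher one in both tissues. RPOTMP, the enzyme of both organelles, had the lowest level of all 9 genes in both wild-type groups. It stood at 5.46 FPKM in dko rosettes and 2.95 FPKM in wild-type rosettes (1.85-fold, log2 ratio 0.89, q = 0.00291 in the authors' deposited table). In seedlings its level was 4.37 FPKM in the dko and 2.24 FPKM in wild type (1.95-fold, log2 ratio 0.96, q = 0.000768 in the authors' deposited table). In rosettes RPOTP had the larger log2 ratio of the polymerase genes, and in seedlings RPOTMP; these differences between genes and between tissues were not tested.

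With RPOTP rising more than the other polymerase genes in rosettes, its share of their summed FPKM was 62.9% in dko rosettes and 50.2% in wild-type rosettes. In seedlings the share of RPOTP was 74.3% in the dko and 72.8% in wild type. RPOTM held 22.9% of the sum in dko rosettes and 30.9% in wild-type rosettes, and 16.6% in dko seedlings and 19.2% in wild-type seedlings. The calls of RPOTM in both tissues and of RPOTMP in rosettes did not hold when p-values were taken from the deposited test score of Cuffdiff read as a normal deviate, an alternative added after the data were seen (q = 0.556 and 0.382 for RPOTM in rosettes and seedlings, 0.348 for RPOTMP in rosettes). RPOTP in both tissues (q = 0.00167 in rosettes and 0.0179 in seedlings) and RPOTMP in seedlings (q = 0.0228) passed with it.

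**Figure D1:**
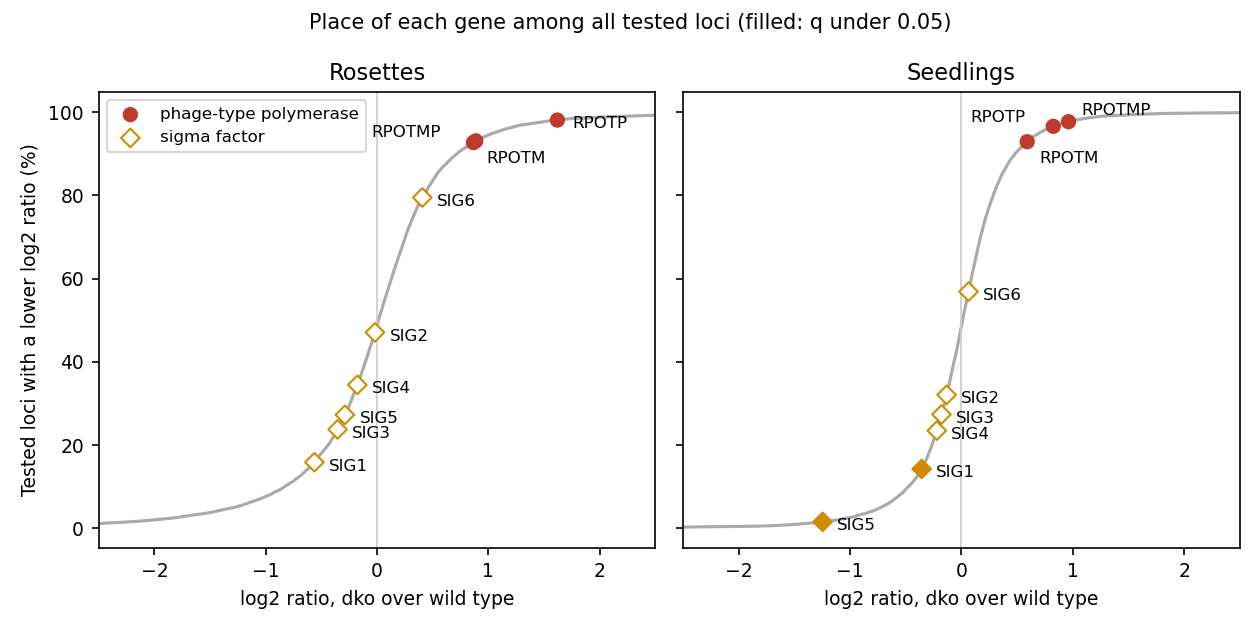
Each gene's log2 ratio of dko over wild type (horizontal axis) against the percentage of tested loci with a lower log2 ratio (vertical axis), for rosettes (left) and seedlings (right); the grey curve is all tested loci and filled symbols have q under 0.05. The polymerase genes lie between 92.7% and 98.1% in both tissues, and SIG5 in seedlings lies at 1.6%.

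The polymerase genes lie on different nuclear chromosomes. In TAIR10 coordinates of the tables, RPOTP (AT2G24120) lies on chromosome 2 at 10248911 to 10254641, RPOTM (AT1G68990) within a span on chromosome 1 at 25932998 to 25940966, and RPOTMP (AT5G15700) on chromosome 5 at 5115300 to 5121840, all on the minus strand. Per the RefSeq annotation of TAIR10.1 they have 19, 19 and 20 exons and coding sequences of 2982, 2952 and 3156 bases. Every exon window of 50 bases was unique in the genome for RPOTP and RPOTM, and 99.9% of those of RPOTMP, so reads of at least that length can be told apart between these relatives. The span of RPOTM in the tables is shared with AT1G68980, a protein-coding gene on the other strand whose annotation overlaps that of RPOTM by 34 bases. AT1G68980 had 4.16 FPKM in dko rosettes and 4.21 FPKM in wild-type rosettes (q = 0.990), and 3.85 FPKM in dko seedlings and 3.88 FPKM in wild-type seedlings (q = 0.989), per the authors' deposited tables.

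The 250 bases before the RefSeq start of the 3 polymerase genes, which rose together, come from the TAIR10.1 genome, 5′ to 3′ on the strand of the gene, with motif matches in capitals. They are chr2:10254642-10254891, chr1:25940997-25941246 and chr5:5121842-5122091, each on the minus strand.
RPOTP: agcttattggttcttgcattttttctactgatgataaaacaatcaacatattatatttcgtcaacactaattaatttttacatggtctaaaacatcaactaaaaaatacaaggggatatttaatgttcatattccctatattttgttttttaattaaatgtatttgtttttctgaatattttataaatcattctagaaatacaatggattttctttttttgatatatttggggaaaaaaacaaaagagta
RPOTM: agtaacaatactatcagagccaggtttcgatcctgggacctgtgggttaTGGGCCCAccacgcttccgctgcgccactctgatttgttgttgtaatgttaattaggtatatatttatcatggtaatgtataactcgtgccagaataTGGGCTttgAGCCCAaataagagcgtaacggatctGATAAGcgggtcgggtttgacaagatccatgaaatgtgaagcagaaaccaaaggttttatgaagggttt
RPOTMP: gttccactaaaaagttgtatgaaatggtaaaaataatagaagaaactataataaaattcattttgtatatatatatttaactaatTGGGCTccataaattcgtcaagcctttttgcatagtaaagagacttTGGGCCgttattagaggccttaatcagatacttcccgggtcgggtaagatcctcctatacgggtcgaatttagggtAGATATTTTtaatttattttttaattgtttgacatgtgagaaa
The motifs searched on both strands were the G-box CACGTG, the ACGT core (which the G-box contains), the evening element AAAATATCT, the I-box GATAAG, the W-box TTGACC or TTGACT, the site II element TGGGCC or TGGGCT, the telo-box AAACCCTAA and the mitochondrial dysfunction motif. The capitals mark 4 site II matches, of which a pair overlaps, and an I-box in RPOTM, and 2 site II matches and an evening element in RPOTMP. No motif of this list was found in the RPOTP window, which has a GC content of 22.4%. The site II element, known from promoters of nuclear genes for mitochondrial proteins and bound by TCP factors, occurred in 6 of the 9 genes (RPOTM, RPOTMP, SIG1, SIG2, SIG4 and SIG6) and in 19.2% of 27443 promoters of the same length. The mitochondrial dysfunction motif, which NAC factors bind in genes of mitochondrial stress, was in none of the 9 windows and in 1.20% of all promoters. The upstream window of RPOTM also overlaps an annotated gene on the plus strand, AT1G69000. Those of SIG1, SIG2, SIG3 and SIG6 overlap annotated genes as well (AT1G64850, AT1G08530, AT3G00910 and AT2G37000). Whether the motif matches lie inside these genes was not examined.

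Among the sigma factors SIG5, the family member tied to blue light and stress, fell in seedlings. Its level was 3.16 FPKM in dko seedlings and 7.5 FPKM in wild-type seedlings, so that the dko had 42.2% of the wild-type level (log2 ratio -1.25, q = 0.000768 in the authors' deposited table). Only 1.6% of tested loci had a lower log2 ratio in seedlings. In rosettes SIG5 had 4.61 FPKM in the dko and 5.63 FPKM in wild type, and this comparison did not pass (log2 ratio -0.29, q = 0.482 in the authors' deposited table). Whether its ratio differs between the tissues was not tested. SIG5 had the lowest level of the 9 genes in both dko groups, and its share of the summed sigma factor FPKM was 2.66% in dko seedlings and 5.63% in wild-type seedlings. SIG5 in seedlings passed the threshold with the test score read as a normal deviate as well (q = 0.00454).

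SIG5 (AT5G24120) lies on chromosome 5 at 8157551 to 8160229 on the minus strand, 276.9 kb from the mutated gene TRIC2. Among tested loci within 300 kb of TRIC2, a distance chosen after the data were seen, 16 of 82 (19.5%) were called in rosettes and 18 of 89 (20.2%) in seedlings, where 16.8% and 16.5% of all tested loci were called. These counts include SIG5 itself, which was called in seedlings. The sequence before its RefSeq start is shown since SIG5 was the sigma factor with the largest change, at chr5:8160344-8160593 on the minus strand, read 5′ to 3′ from TAIR10.1, with its motif match in capitals.
SIG5: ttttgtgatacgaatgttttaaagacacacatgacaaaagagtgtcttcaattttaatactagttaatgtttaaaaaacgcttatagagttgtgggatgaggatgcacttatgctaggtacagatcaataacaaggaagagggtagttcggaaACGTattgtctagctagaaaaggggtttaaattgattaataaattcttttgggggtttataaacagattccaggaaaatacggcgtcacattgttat
The capitals mark 1 ACGT core, the centre of the sites that bZIP factors such as HY5 bind, found in 44.1% of all promoters. None of the other motifs named above was found in this window, the G-box among them, which occurred in 6.49% of all promoters.

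SIG1, a sigma factor linked to photosystem genes, fell in seedlings to 12.6 FPKM in the dko, against 16.1 FPKM in wild type, close to the threshold (log2 ratio -0.36, q = 0.0496 in the authors' deposited table). In rosettes its level was 10.5 FPKM in the dko and 15.5 FPKM in wild type (log2 ratio -0.56, q = 0.0662 in the authors' deposited table). The dko value was the lower one in both tissues. The call of SIG1 in seedlings was lost when organelle-encoded loci were left out of the adjustment (q = 0.05002) and with the test score read as a normal deviate (q = 0.725).

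The other 4 sigma factor genes did not pass the threshold in either tissue. SIG6, which acts early in chloroplast development, had 32.4 FPKM in dko rosettes and 24.4 FPKM in wild-type rosettes (log2 ratio 0.41, q = 0.199 in the authors' deposited table). In seedlings SIG6 had 39.0 FPKM in the dko and 37.3 FPKM in wild type (log2 ratio 0.06, q = 0.814 in the authors' deposited table). It was the only sigma factor gene with a positive log2 ratio, in both tissues. SIG2, needed for plastid tRNA genes, had 25.2 FPKM in dko rosettes and 25.6 FPKM in wild-type rosettes, and 34.1 FPKM in dko seedlings and 37.4 FPKM in wild-type seedlings (q = 0.973 and 0.561 in the authors' deposited tables). Those are small gaps beside the ratios of the polymerase genes. SIG3, known for transcribing psbN, had 9.14 FPKM in dko rosettes and 11.7 FPKM in wild-type rosettes, and 9.06 FPKM in dko seedlings and 10.3 FPKM in wild-type seedlings (q = 0.298 and 0.459 in the authors' deposited tables). SIG4, known for transcribing ndhF, had 15.5 FPKM in dko rosettes and 17.5 FPKM in wild-type rosettes, and 21.1 FPKM in dko seedlings and 24.6 FPKM in wild-type seedlings (q = 0.796 and 0.399 in the authors' deposited tables). Its span in the tables is shared with AT5G13720 on the plus strand, whose annotation overlaps that of SIG4 by 201 bases and which had log2 ratios of -0.25 in rosettes and -0.64 in seedlings (q = 0.682 and 0.0591 in the authors' deposited tables). No source used here states how strand was used in counting.

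**Figure D2:**
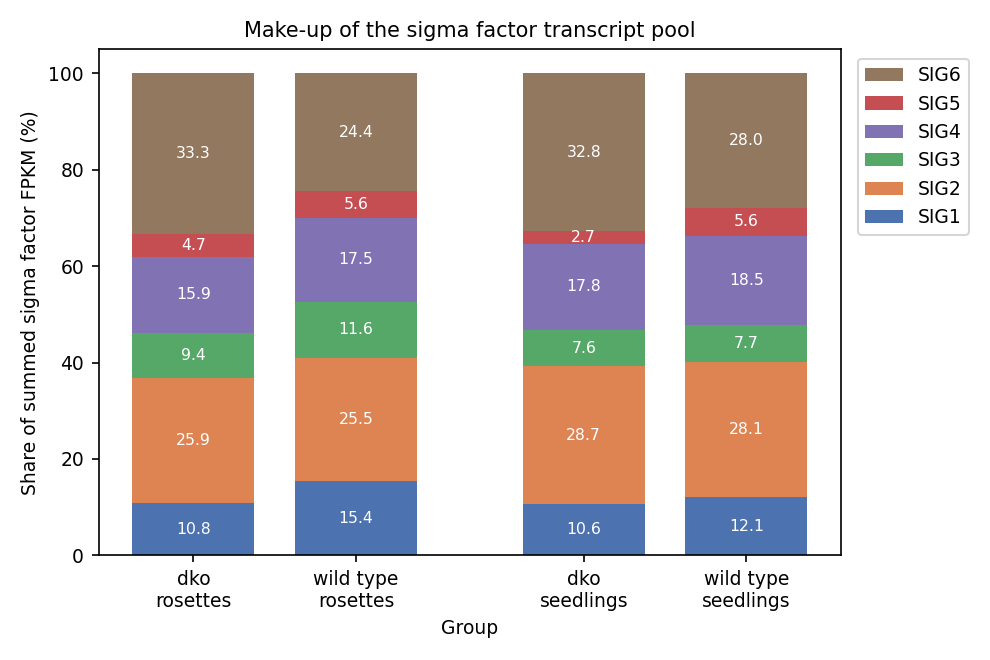
Share of the summed FPKM of the 6 sigma factor genes held by each gene (vertical axis, %), with dko left of wild type for rosettes and then seedlings. SIG6 held 33.3% in dko rosettes and 24.4% in wild-type rosettes, SIG1 10.8% and 15.4% in the same groups, and SIG5 2.7% in dko seedlings and 5.6% in wild-type seedlings.

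By level, SIG2 and SIG6 headed the sigma factors in all 4 groups. SIG6 was above SIG2 by 1.28-fold in dko rosettes, while SIG2 was above SIG6 by 1.05-fold in wild-type rosettes. In seedlings SIG6 was above SIG2 in the dko, with RPOTP between them, and the FPKM of SIG2 was 1.002-fold that of SIG6 in wild type. SIG4, SIG1 and SIG3 followed in that order in every group. The pooled values carry no spread, so whether neighbours in these orders differ cannot be told.

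Most genes of the proteins bound to the bacterial-type plastid polymerase rose as well. Of 13 such genes, 11 rose in rosettes and 11 in seedlings, 10 of them in both tissues, and 0 fell by Cuffdiff, with 0 lower at an unadjusted p under 0.05 as well, and with median log2 ratios of 1.15 in rosettes and 0.68 in seedlings. Of all tested loci, 7.81% were called higher and 8.94% lower in rosettes, and 8.4% higher and 8.14% lower in seedlings. FLN2 and FLN1 encode fructokinase-like proteins of this complex. FLN2 had 18.5 FPKM in dko rosettes and 3.64 FPKM in wild-type rosettes (5.08-fold, q = 0.000899 in the authors' deposited table), and 52.7 FPKM in dko seedlings and 21.5 FPKM in wild-type seedlings (2.46-fold, q = 0.000768 in the authors' deposited table). FLN1 had 35.6 FPKM in dko rosettes and 8.28 FPKM in wild-type rosettes (4.30-fold, q = 0.000899 in the authors' deposited table), and 69.0 FPKM in dko seedlings and 29.3 FPKM in wild-type seedlings (2.35-fold, q = 0.000768 in the authors' deposited table). PTAC12, also called HEMERA and active in phytochrome signalling too, rose 3.08-fold in rosettes and 1.82-fold in seedlings, and PTAC14, a SET domain protein of the complex, 2.30-fold and 1.51-fold, each with q = 0.000899 in rosettes and 0.000768 in seedlings in the authors' deposited tables. FSD2, a plastid iron superoxide dismutase in this complex, had 20.7 FPKM in dko rosettes and 7.27 FPKM in wild-type rosettes, and 66.4 FPKM in dko seedlings and 35.3 FPKM in wild-type seedlings (q = 0.000899 and 0.000768 in the authors' deposited tables).

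PTAC6, another protein of the complex, did not pass in either of the authors' deposited tables (q = 0.832 in rosettes and 0.633 in seedlings), with 49.1 FPKM in dko rosettes and 52.4 FPKM in wild-type rosettes, and 71.0 FPKM in dko seedlings and 65.6 FPKM in wild-type seedlings. The site II element was found before 1 of these 13 genes. With the test score read as a normal deviate, 4 of the 13 passed in rosettes and 6 in seedlings. None of the 4 core subunit genes encoded in the plastid passed in either tissue. Over all loci, 486 of 18338 tested passed in rosettes and 523 of 19747 in seedlings with that reading.

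**Figure D3:**
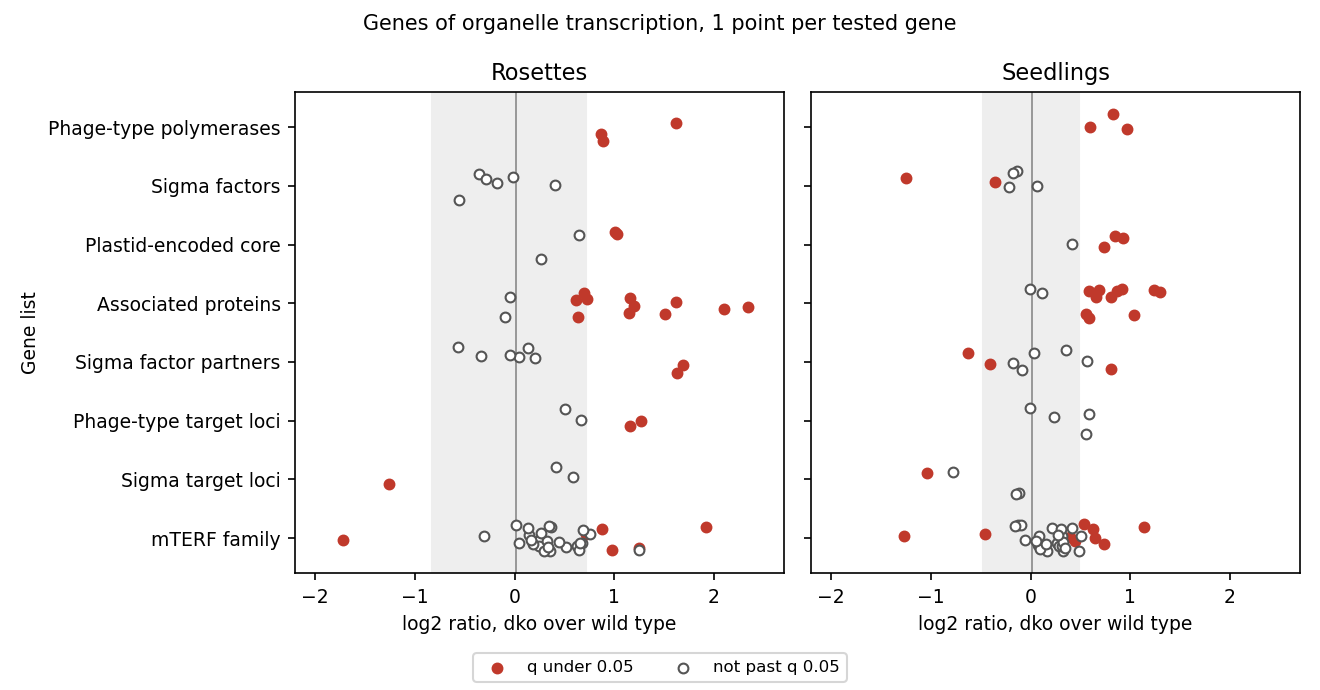
Log2 ratio of dko over wild type (horizontal axis) for each tested gene of 8 groups of organelle transcription genes, in rosettes (left) and seedlings (right); vertical scatter within a group has no meaning. The grey band holds the middle of all tested loci, from percentile 10 to 90, which is -0.83 to 0.72 in rosettes and -0.48 to 0.48 in seedlings. The phage-type polymerase genes lie right of the band in both panels, and all sigma factor genes except SIG5 in seedlings lie within it.

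The 4 plastid-encoded core subunits all had positive log2 ratios, of which 2 passed in rosettes and 3 in seedlings. Of these, rpoC2, rpoC1 and rpoB lie side by side on the plastid genome, at 15938 to 20068, 20251 to 23084 and 23111 to 26329. Whether the calls of these 3 neighbours are independent was not tested. Of all tested loci, 7.81% in rosettes and 8.4% in seedlings were called higher. Nearly all loci are nuclear (33854 of 34133), so these shares are mostly nuclear and may be too low a background for plastid loci. With organelle-encoded loci left out, calls in either direction fell to 2988 loci in rosettes. In seedlings they fell from 3267 to 3203. Nuclear loci lost in the new adjustment can be part of each fall. The share called among plastid loci alone was not counted. In rosettes rpoA, the alpha subunit, rose 2.01-fold (q = 0.0128) and rpoC2, which encodes part of the beta-prime subunit, 2.04-fold (q = 0.00818), in the authors' deposited table. There rpoB (1.57-fold, q = 0.0998) and rpoC1 (1.20-fold, q = 0.625) did not pass in rosettes. In seedlings rpoC2 rose 1.91-fold (q = 0.00141) and rpoA had 2232 FPKM in the dko and 1675 FPKM in wild type (q = 0.191), per the authors' deposited table. In seedlings rpoB, the beta subunit, had 433 FPKM in the dko and 241 FPKM in wild type (q = 0.000768 in the authors' deposited table), and rpoC1 had 891 FPKM in the dko and 533 FPKM in wild type (q = 0.00202 in the authors' deposited table). A list of 4 plastid loci with phage-type promoters, which leaves out the rpo genes, was set against the same shares of all tested loci. Of these 4, ycf1 (2.23-fold, q = 0.00504) and ycf2 (2.41-fold, q = 0.0318) rose in rosettes in the authors' deposited table. In seedlings 0 of these 4 passed by Cuffdiff in the authors' deposited table, where 1 had an unadjusted p under 0.05. Neither the rise of ycf1 nor that of ycf2 passed with the test score read as a normal deviate. Whether reads of ycf1 or ycf2 match other places of the plastid genome was not examined. The other members of that list, accD and clpP, had log2 ratios of 0.67 and 0.50 in rosettes and -0.002 and 0.23 in seedlings in the authors' deposited tables. Among 7 plastid loci linked to single sigma factors, 4 had no test in rosettes and 3 in seedlings, psbD and psbC, which SIG5 is known to serve, among them. Of those tested, 1 was called lower in each tissue, where 8.94% of all tested loci in rosettes and 8.14% in seedlings were. The psbN locus, served by SIG3, fell to 238073 FPKM in dko rosettes, against 572046 FPKM in wild-type rosettes, and to 97500 FPKM in dko seedlings, against 200160 FPKM in wild-type seedlings (log2 ratios -1.26 and -1.04, q = 0.00164 and 0.000768 in the authors' deposited tables). This locus spans 132 bases, and it lies on the strand opposite the psbB operon; the use of strand in counting was not stated, so reads of both cannot be told apart there. SIG3 itself did not pass in either tissue, and psbN in rosettes did not with the test score read as a normal deviate. SIG2 is linked to psaJ, which had log2 ratios of 0.41 in rosettes and -0.12 in seedlings (q = 0.299 and 0.666 in the authors' deposited tables).

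Of 8 genes for proteins that act on the sigma factors or the plastid polymerase, 2 rose in rosettes, where 7.81% of all tested loci were called higher. In seedlings 1 rose and 2 fell, where 8.4% of all tested loci were called higher and 8.14% lower. With the test score read as a normal deviate, 1 of the 8 passed in rosettes and 1 in seedlings. Over all loci, 486 of 18338 tested passed in rosettes and 523 of 19747 in seedlings with that reading. Of the 3 genes of this list called in seedlings, 0 changed by 2-fold or more, where 585 of all 3267 called loci did. PRIN2, a redox-linked regulator of plastid transcription, had 34.1 FPKM in dko rosettes and 10.5 FPKM in wild-type rosettes (3.23-fold, q = 0.000899), and 83.6 FPKM in dko seedlings and 47.9 FPKM in wild-type seedlings (1.74-fold, q = 0.000768), in the authors' deposited tables. SIB1, a protein that binds SIG1 and acts in defence, fell in seedlings to 39.97 FPKM in the dko, against 61.7 FPKM in wild type (q = 0.000768 in the authors' deposited table), and had 109 FPKM in dko rosettes and 162 FPKM in wild-type rosettes (q = 0.0581 in the authors' deposited table). HY5, the bZIP factor that activates SIG5 in light, had 2.34 FPKM in dko rosettes and 0.753 FPKM in wild-type rosettes (3.10-fold, q = 0.0245 in the authors' deposited table). In seedlings, where SIG5 fell, HY5 had 2.63 FPKM in the dko and 1.78 FPKM in wild type (q = 0.234 in the authors' deposited table). CRY1, the blue light receptor, fell in seedlings to 61.7 FPKM in the dko, against 81.9 FPKM in wild type (q = 0.0207 in the authors' deposited table), and had 117 FPKM in dko rosettes and 121 FPKM in wild-type rosettes (q = 0.93 in the authors' deposited table).

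The mTERF family, named after a mitochondrial termination factor of animals and holding many plastid and mitochondrial proteins in plants, had 32 tested genes in each tissue. Of these, 5 rose and 1 fell in rosettes, where 7.81% of all tested loci were called higher and 8.94% lower, and the median log2 ratio was 0.35. In seedlings 7 rose and 2 fell, where 8.4% of all tested loci were called higher and 8.14% lower, and the median was 0.30. BSM, needed for splicing of plastid transcripts, had 32.2 FPKM in dko rosettes and 16.4 FPKM in wild-type rosettes (1.97-fold, q = 0.000899), and 40.5 FPKM in dko seedlings and 26.2 FPKM in wild-type seedlings (1.55-fold, q = 0.000768), in the authors' deposited tables. AT1G78930 rose 3.79-fold in rosettes and 2.205-fold in seedlings, and EMB2219 rose 2.37-fold and 1.67-fold in the same tissues, in the authors' deposited tables. EMB3114 rose in rosettes, with 17.5 FPKM in the dko and 9.51 FPKM in wild type (q = 0.00504), and did not pass in seedlings, with 32.7 FPKM in the dko and 26.3 FPKM in wild type (q = 0.0918), in the authors' deposited tables. AT2G34620 fell in both, with 4.01 FPKM in dko rosettes and 13.2 FPKM in wild-type rosettes, and 22.8 FPKM in dko seedlings and 54.9 FPKM in wild-type seedlings (q = 0.000899 and 0.000768 in the authors' deposited tables). With the test score read as a normal deviate, 2 mTERF genes passed in rosettes and 2 in seedlings, where 486 and 523 of all loci passed.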

How the data were processed

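Stranded libraries of total RNA depleted of ribosomal RNA were made with a TruSeq kit, per the labels' protocols. The submitters' processing notes name TAIR10 and the tools TopHat2, Bowtie2, Cuffdiff and Cufflinks, with 2.2.0 as the version of all of them. Annotation, library normalization, use of strand and treatment of reads matching several places were not stated. FPKM was deposited by the authors as 1 pooled value per group, and the deposited log2 ratio sets the dko over wild type. Each p-value and q-value comes from Cuffdiff as deposited (smallest p-value 5e-05), as does its test score, a deposited value with no stated formula. A Benjamini-Hochberg adjustment of tested loci gave the same q-values to within 5.24e-07. The deposited tables give pooled values, so no test was fitted here. Whether rosettes and seedlings were normalized together was not stated, and comparisons were made within a table. Loci marked as not tested, or as holding too many fragments, have no call.

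The genes and lists were chosen with earlier results of these data known. All 9 genes are named. From each list up to 5 genes past q 0.05 were named by their absolute log2 ratio, with targeted genes and loci sharing a span. Genes outside this rule (PTAC2, PTAC6, PTAC7, accD, clpP and psaJ) were named after their values were seen. Names, exons, promoters (250 bases before the start) and windows of 50 bases come from RefSeq TAIR10.1, whose nuclear annotation held 31510 of the 33854 nuclear loci of the tables. After adding 1, 11506 starts were equal, against 135 without. Plastid loci were named by exact coordinates, except psbD and psbC, which share a span, and 1 further locus, not named here. Of 37 mTERF genes in the reference, 35 were in the tables. Calculations used Python 3.11.15, pandas 2.3.3, numpy 2.4.6 and scipy 1.17.1, and the adjustment was tested on simulated data. Alternatives were stricter and looser q thresholds (0.01 and 0.1), a minimum change of 2-fold, a floor of 1 FPKM, organelle-encoded loci left out, recentring on the median, pseudocounts of 1 and 0.1 and, added after seeing the data, the test score read as a normal deviate.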

Additional observations from a re-analysis of the deposited data

Results flagged for a closer look

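PTAC2 and PTAC7, which encode proteins of the plastid polymerase complex, had log2 ratios of opposite sign in rosettes and seedlings, with 1 of the tissues past q 0.05 and a value near 0 in the other. PTAC2 had a log2 ratio of -0.042 in rosettes (q = 0.939) and 0.59 in seedlings (q = 0.000768), and PTAC7 had 0.62 in rosettes (q = 0.0250) and -0.0093 in seedlings (q = 0.979), in the authors' deposited tables. Each value rests on pooled groups, and the difference between tissues was not tested.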

How the results depend on the processing

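Recentring on the median of all tested loci, which lies at 0.01 in each tissue, turned no log2 ratio of the 9 genes; the other alternatives could not turn a sign. At a q threshold of 0.01 RPOTM in rosettes and SIG1 in seedlings no longer passed, at 0.1 SIG1 in rosettes passed too, and SIG1 in seedlings was lost with organelle-encoded loci left out. That threshold of 0.01 left 1 core subunit gene, 7 polymerase-associated proteins, 1 sigma factor partner and 1 listed locus with a phage-type promoter in rosettes. It left 1783 of all loci in rosettes and 2040 in seedlings.

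A minimum change of 2-fold left 1 of the 9 genes in each tissue (RPOTP in rosettes and SIG5 in seedlings). In rosettes it left 7 polymerase-associated proteins, 3 mTERF genes and 1709 of all loci, and in seedlings 0 core subunit genes, 3 polymerase-associated proteins, 0 sigma factor partners, 2 mTERF genes and 585 of all loci.

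The test score read as a normal deviate, an alternative added after seeing the data, left 1 of the 9 genes in rosettes (RPOTP) and 3 in seedlings (RPOTP, RPOTMP and SIG5). In rosettes it left 0 core subunit genes, 4 polymerase-associated proteins, 1 sigma factor partner and 0 sigma factor target loci. In rosettes it also left 0 listed loci with phage-type promoters, 2 mTERF genes and 486 of all loci. In seedlings it left 0 core subunit genes, 6 polymerase-associated proteins, 1 sigma factor partner, 2 mTERF genes and 523 of all loci. The cause was not tested.

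No paired analysis was possible because each group has 1 pooled value, and for the same reason leaving out each replicate was not run. Depth is unknown, so it sets no stated limit on any value. Lists of plastid loci have no value with organelle-encoded loci left out.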
